A study of Mus musculus with 3 samples.

Results

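The genes described here are the CD3 chains of the T cell receptor (TCR) complex, Cd3d, Cd3e and Cd3g, its zeta chain Cd247, the kinases Lck, Zap70 and Fyn, and the adaptors Lat and Lcp2. They were taken by symbol and are 9 of the 54838 genes listed in spatial transcriptomes of the thymus. Sections came from 2 Trp53-/- mice (KO), KO1134 at 17 weeks and KO1308 at 21 weeks of age, and from 1 Trp53+/+ mouse (WT), WT1101 at 17 weeks. All 3 mice were female C57BL/6 mice that had been perfused with cold PBS, and each section stands for 1 mouse, so KO1308 differs from the others in age as well. Transcripts were counted by unique molecular identifiers (UMIs) on spots 4.8 µm apart, and squares of 27 µm (bins) were the unit of area. All bins with at least 300 genes were used, so that bins were not chosen by their CD3 level. Levels are shares of all UMIs of the same area on the usual CPM scale.

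TCR chains bind antigen but have no signalling domain of their own. The CD3 and zeta chains carry the tyrosine motifs that Lck, and in part Fyn, phosphorylate once the receptor is engaged. Zap70 then docks on these motifs and phosphorylates Lat, which gathers Lcp2 (SLP-76) and downstream enzymes at the membrane. In the thymus the same machinery reads the pre-TCR in early cells, and later sets positive and negative selection in the cortex and the medulla.

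Trp53 itself was counted at 16.9 CPM in KO1134, 25.5 CPM in KO1308 and 79.7 CPM in WT, so it was lower in both KO sections but not at 0. The 3 sections gave 12054, 17423 and 27280 bins and 18446453 to 40662192 UMIs, with a median of 832 to 2638 UMIs per bin, KO1308 being the shallowest. The 9 genes took 0.226% of the UMIs in KO1134, 0.276% in KO1308 and 0.456% in WT. Lists of other cells differed between the genotypes over the same bins. B cell genes (3 of 3 genes higher in both KO sections) summed to 223, 147 and 41.0 CPM in KO1134, KO1308 and WT. Adipocyte genes (4 of 4) summed to 411, 919 and 11.9 CPM, fibroblast genes (4 of 4) to 299, 302 and 135 CPM, and myeloid genes (5 of 6) to 1820, 1050 and 717 CPM. Natural killer genes (4 of 5) summed to 77.5, 54.5 and 25.8 CPM, platelet genes (3 of 5) to 15.7, 16.8 and 11.3 CPM, and endothelial genes (3 of 4) to 120, 159 and 118 CPM. No gene of these lists was at 0 in a section, and their part in the differences described here was not tested beyond the compartments given further on. With 1 WT section, intervals in brackets are exact 95% intervals that cover counting error only.

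The receptor chains were lower in both KO sections, and the 3 CD3 chains did not move in step. Summed, they were at 656 CPM in KO1134, 790 CPM in KO1308 and 1443 CPM in WT. The KO values were 0.455 (0.448 to 0.462) and 0.548 (0.538 to 0.558) of WT, and both KO sections lay below WT by more than they differed from each other. In bulk sums of this kind, fewer T cells and less RNA per T cell cannot be told apart. Cd3d, which pairs with Cd3e in the complex, was at 249, 307 and 598 CPM in KO1134, KO1308 and WT. Cd3g, the other partner of Cd3e, was at 262, 233 and 537 CPM. Both KO sections lay well below WT for both genes, with ratios of 0.416 and 0.512 for Cd3d and of 0.488 and 0.433 for Cd3g. Cd3e, which is shared by both heterodimers, was at 145, 251 and 307 CPM, so that KO1308 kept 0.819 (0.791 to 0.847) of the WT level and KO1134 only 0.471 (0.455 to 0.488). The mix of the 3 chains differed accordingly. Cd3e made up 22.0% of CD3 UMIs in KO1134, 31.8% in KO1308 and 21.3% in WT, whereas Cd3g made up 40.0%, 29.4% and 37.3%. Cd247, the signalling dimer of the complex, was at 139, 232 and 345 CPM, with ratios of 0.401 (0.388 to 0.415) and 0.672 (0.649 to 0.695) to WT.

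**Figure D1:**
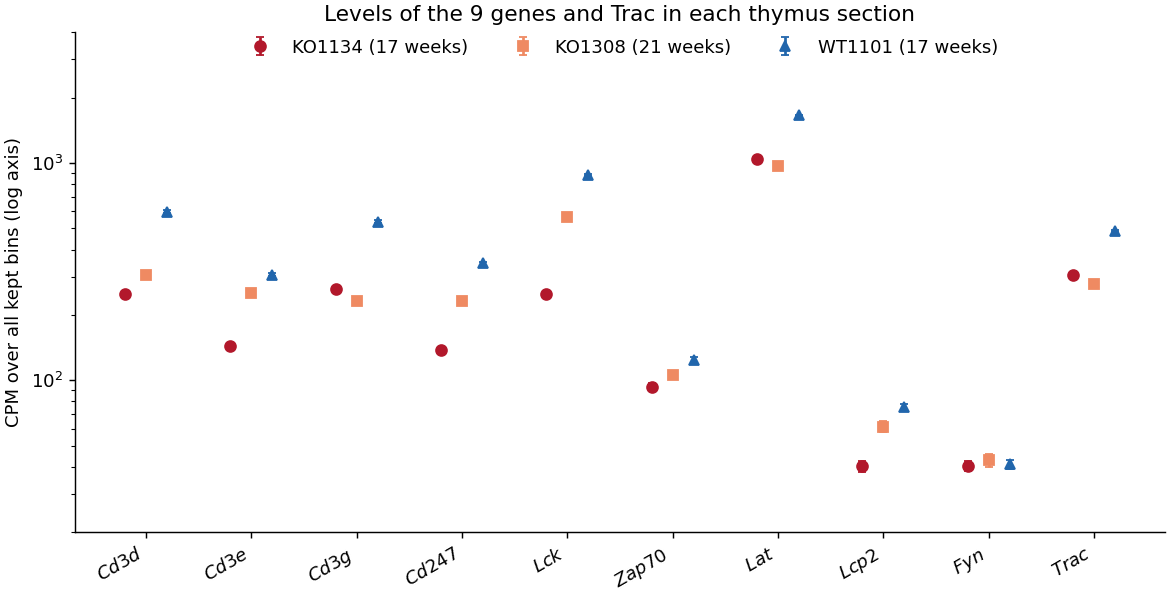
Levels of the 9 genes and Trac over all kept bins, in CPM on a log axis, for the KO1134 (circles), KO1308 (squares) and WT (triangles) sections; bars are exact Poisson 95% intervals. WT is highest for 8 of the 9 genes, and the sections lie together for Fyn (40.3, 42.9 and 41.1 CPM).

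The 3 CD3 genes lie together on chromosome 9 within 40056 bases (GRCm38). Cd3g (44969572 to 44980431, minus strand) and Cd3d (44981786 to 44987339, plus strand) are transcribed away from each other from starts 1355 bases apart, and Cd3e (44998740 to 45009627, minus strand) lies beyond Cd3d. The 250 bases before each RefSeq start are shown because Cd3d and Cd3g were at 0.512 of WT or below in both KO sections while the neighbouring Cd3e was not. Sequences are those of RefSeq on GRCm38.p6, 5′ to 3′ on the strand of the gene. Capitals mark E-box (CAGNTG), ETS (AGGAAG), RUNX (TGTGGT) and TCF/LEF (ACAAAG) motifs and the decamer of the Trp53 response element, found on either strand.
Cd3d, chr9:44981536-44981785, plus strand: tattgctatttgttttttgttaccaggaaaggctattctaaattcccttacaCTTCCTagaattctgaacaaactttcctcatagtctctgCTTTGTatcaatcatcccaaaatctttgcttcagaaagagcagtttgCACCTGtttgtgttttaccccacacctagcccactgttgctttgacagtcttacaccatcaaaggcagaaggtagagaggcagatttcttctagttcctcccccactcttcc
Cd3g, chr9:44980432-44980681, minus strand: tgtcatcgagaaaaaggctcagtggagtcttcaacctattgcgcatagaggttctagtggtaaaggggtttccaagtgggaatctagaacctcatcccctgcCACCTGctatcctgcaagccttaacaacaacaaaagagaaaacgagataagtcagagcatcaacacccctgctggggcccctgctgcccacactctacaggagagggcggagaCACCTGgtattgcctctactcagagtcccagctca
Cd3e, chr9:45009612-45009861, minus strand: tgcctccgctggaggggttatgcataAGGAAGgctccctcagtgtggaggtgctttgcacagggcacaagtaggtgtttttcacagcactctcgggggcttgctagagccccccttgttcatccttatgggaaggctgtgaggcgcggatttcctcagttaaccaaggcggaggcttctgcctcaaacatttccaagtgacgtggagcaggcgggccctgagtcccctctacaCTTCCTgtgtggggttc
The Cd3d stretch held 1 E-box, 1 ETS and 1 TCF/LEF match. The Cd3g stretch held 2 E-box matches, and the Cd3e stretch held 2 ETS matches and no E-box, so ETS matches did not set Cd3e apart from Cd3d. Of all 32851 RefSeq promoters, 44.8% held an E-box, 29.5% the ETS, 14.0% the RUNX and 16.5% the TCF/LEF letters in the same window. Among the 12 promoters of the 9 genes, 8, 9, 2 and 3 did. Such matches are common and mark no binding site.

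Among the kinases, Lck differed most between the KO sections. Lck, the kinase that starts the cascade and rides on CD4 and CD8, was at 251 CPM in KO1134, 564 CPM in KO1308 and 877 CPM in WT. That was 0.286 (0.279 to 0.293) and 0.643 (0.630 to 0.658) of WT, and KO1134 held 0.444 (0.432 to 0.458) of the level of KO1308. Zap70, the kinase recruited to the phosphorylated chains, was at 93.6, 106 and 124 CPM, or 0.752 (0.719 to 0.788) and 0.849 (0.806 to 0.895) of WT. Fyn, the second Src family kinase of the receptor, was at 40.3, 42.9 and 41.1 CPM. Its ratios of 0.980 (0.910 to 1.06) and 1.04 (0.956 to 1.13) did not differ from 1 beyond counting error. The ratio of Lck to Fyn UMIs was therefore 6.22 in KO1134, 13.2 in KO1308 and 21.3 in WT, and that of Lck to Zap70 was 2.68, 5.34 and 7.05.

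Lck (chromosome 4, 129548344 to 129573641, minus strand) is known for a distal promoter, used more in mature T cells, and a proximal one, used in thymocytes. Both stretches of 250 bases are shown because Lck had the lowest ratio to WT of the 9 genes in KO1134, though not in KO1308; the deposited counts per gene do not tell the starts apart. Capitals are as above.
Lck distal, chr4:129573642-129573891, minus strand: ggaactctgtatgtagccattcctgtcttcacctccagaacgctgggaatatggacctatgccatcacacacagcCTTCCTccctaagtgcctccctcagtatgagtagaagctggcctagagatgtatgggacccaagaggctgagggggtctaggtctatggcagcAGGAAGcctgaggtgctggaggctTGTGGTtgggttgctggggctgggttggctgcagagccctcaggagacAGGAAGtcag
Lck proximal, chr4:129558373-129558622, minus strand: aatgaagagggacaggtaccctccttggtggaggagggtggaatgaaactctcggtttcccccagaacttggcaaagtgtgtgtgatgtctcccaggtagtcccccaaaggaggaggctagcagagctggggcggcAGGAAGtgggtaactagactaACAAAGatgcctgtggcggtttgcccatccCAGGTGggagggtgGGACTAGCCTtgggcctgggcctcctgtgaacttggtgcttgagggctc
The distal stretch held 3 ETS matches and the RUNX match. The proximal stretch held 1 E-box, 1 ETS and 1 TCF/LEF match and 1 match of the Trp53 decamer, 49 to 40 bases before the start, which reads as such on both strands. Of all promoters, 7.13% held that decamer, and among the 12 promoters of the 9 genes it was also in 1 promoter of Zap70.

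The adaptors followed the chains to different degrees. Lat, the membrane scaffold, was at 1039, 965 and 1656 CPM in KO1134, KO1308 and WT, or 0.627 (0.619 to 0.636) and 0.582 (0.573 to 0.592) of WT. Lcp2, which Lat recruits through Gads, was at 40.2, 61.2 and 75.3 CPM, or 0.534 (0.50 to 0.571) and 0.813 (0.759 to 0.871) of WT. Lat thus lay at similar levels in both KO sections, whereas Lcp2 in KO1308 was closer to WT than to KO1134. UMIs of Lcp2 and Fyn are uncertain in 1 respect. Each gene has an annotated gene on its other strand, and whether the counting used strand is not given in the sources used here. 4930469K13Rik, opposite Lcp2, had 1306, 1583 and 3326 UMIs beside 1255, 1423 and 3175 of Lcp2 over all spots of KO1134, KO1308 and WT. Gm16365, opposite Fyn, had 1191, 930 and 1625 UMIs beside 1257, 883 and 1724 of Fyn. Of spots with Lcp2, 5.27% to 7.44% also held 4930469K13Rik and 1.81% to 4.72% held Trac, although Trac was the gene found on more spots in each section. Of spots with Fyn, 4.69% to 7.93% also held Gm16365 and 2.35% to 5.84% held Trac. Pou2f1, opposite Cd247, had 753, 563 and 1648 UMIs beside 4326, 4929 and 14447 of Cd247, and 0.950% to 1.42% of spots with Cd247 held it. The part of these other genes in the values of the 3 members was not tested.

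Below 1/1.5 of WT were 7 of the 9 genes in KO1134, where 19.8% of all 13486 genes with at least 5 CPM on average were that low, and 4 of 9 in KO1308, where 13.5% were. Cd3d, Cd3g, Lck and Lat passed this limit in both KO sections (4 of 9, beside 7.86% of all genes), with Lck in KO1308 just inside it at 0.643 and Cd247 in KO1308 just outside it at 0.672. No member was above 1.5 times WT in both KO sections, as 15.4% of all genes were. The median ratio of the 9 genes was 0.488 in KO1134 and 0.672 in KO1308, and that of all genes 0.957 and 1.05. A fit of UMIs per section with edgeR, with 1 residual degree of freedom and the lone WT section taken to vary as the KO sections do, called none of the 9 (adjusted p 0.393 to 0.880), and 0.0489% of all 22516 genes tested. All 9 estimates were below 0, from -1.30 ± 0.57 (log2, SE) for Lck to -0.14 ± 0.36 for Fyn. At an unadjusted p under 0.05, edgeR listed 2 of the 9, Cd3d (-1.27 ± 0.46) and Cd3g (-1.27 ± 0.47), beside 11.7% of all genes. DESeq2 also called none after adjustment, beside 2.01% of all genes, and listed 5 before it, beside 11.69%. The median estimate of all genes was 0.08 with the TMM scaling used here and 0.24 with library size alone, where Fyn was at 0.02 and the other 8 genes stayed below 0. For a single value, the smallest p that an exact permutation test of 2 against 1 sections allows is 0.333, so no such test was run.

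**Figure D2:**
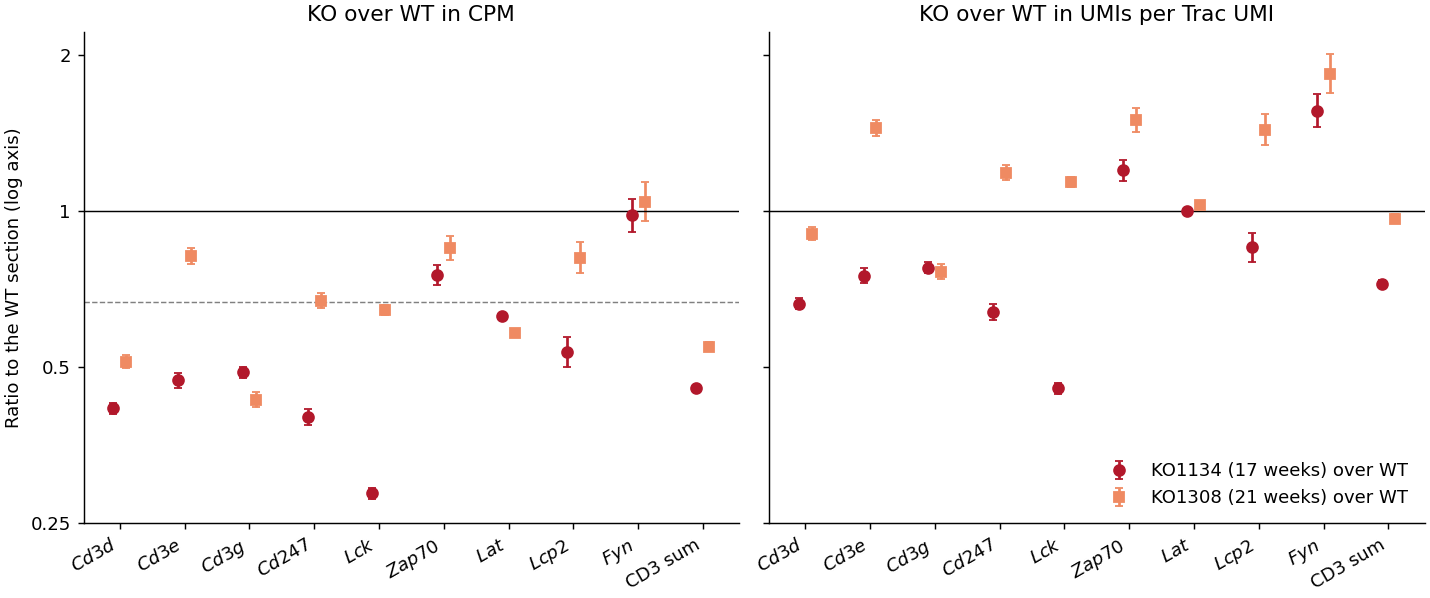
Ratio of each KO section to WT for the 9 genes and the summed CD3 chains, in CPM (left) and in UMIs per Trac UMI (right), on log axes; bars are exact conditional 95% intervals for counting error, and the dashed line marks 1/1.5. In CPM 8 of the 9 genes lie below 1 in both KO sections, whereas per Trac UMI only Cd3d and Cd3g do.

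Trac encodes the constant part of the TCR alpha chain and gives a scale for rearranged T cells. Trac was at 306 CPM in KO1134, 276 CPM in KO1308 and 488 CPM in WT, or 0.628 (0.613 to 0.644) and 0.567 (0.549 to 0.584) of WT. Per Trac UMI the summed CD3 chains were at 2.14 in KO1134, 2.86 in KO1308 and 2.96 in WT. The difference from WT was thus small in KO1308, at 0.967 (0.949 to 0.985) of WT, and larger in KO1134, at 0.724 (0.712 to 0.736). Lat stayed closest to Trac, with 3.39, 3.49 and 3.40 UMIs per Trac UMI and ratios of 0.998 (0.985 to 1.01) and 1.03 (1.01 to 1.04). Cd3d (0.663 and 0.904) and Cd3g (0.777 and 0.764) were below WT per Trac UMI in both KO sections, as were 4.29% of all genes. Zap70 (1.20 and 1.499) and Fyn (1.56 and 1.84) were above it in both, as were 81.6% of all genes, since most genes were not lowered as Trac was. The other 4 genes went opposite ways in the 2 KO sections. Lck per Trac UMI was 0.455 (0.444 to 0.467) of WT in KO1134 and 1.14 (1.11 to 1.16) in KO1308, Cd247 0.638 and 1.19, Cd3e 0.7503 and 1.445, and Lcp2 0.851 and 1.43. The edgeR fit with Trac UMIs as library size called none of the 9 (adjusted p 0.328 to 0.976) and 7.54% of all genes; it listed none of the 9 at an unadjusted p under 0.05 either.

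The choice of reference decided the side of WT on which the CD3 chains lay. Against the sum of Trac, Trbc1 and Trbc2 they were at 1.24 and 1.23 of WT, and against 5 other T cell genes (Cd2, Cd5, Cd6, Bcl11b and Tcf7) at 1.18 and slightly above 1. Those references were themselves lower in KO than Trac was: the TCR constant genes summed to 0.367 and 0.445 of WT in CPM. Under both references Zap70, Lat, Lcp2, Fyn, Cd3e and Cd247 were above WT in both KO sections. The share of all genes above WT in both was not counted for these references. In edgeR the median estimate of all genes was 1.54 (log2) against the TCR constant genes, so lying above WT does not set these members apart. Lck was at 0.780 and 1.445 of WT against the TCR constant genes, so its opposite sides in KO1134 and KO1308 did not hang on Trac. Cd3g also lay on opposite sides under these references, at 1.33 and 0.972 against the TCR constant genes.

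The TCR beta constant genes also set the KO sections apart. Trbc1 made up 57.3% of Trbc1 and Trbc2 UMIs in KO1134, 34.7% in KO1308 and 37.1% in WT. The thymus area, taken where Themis, Arpp21, Ptcra, Cd8b1, Prss16 and Psmb11 together reached 0.5 of their mean share of UMIs in the section, was therefore split by which of them was ahead in the surrounding 7 × 7 bins, a split chosen after the data had been seen. In KO1134, 7730 bins had more Trbc1 and 1779 did not. In KO1308 146 bins had more Trbc1, and in WT any such bins were too few to be summed. Of the 1779 bins of KO1134, 1046 (58.8%) lay in the B cell zone described further on, beside 3.97% of the 7730, so the split is in large part one between that zone and the other tissue. Over all these bins, Cd3d was at 196 CPM where Trbc1 was ahead and 417 CPM where it was not, and Trac at 240 and 533 CPM. Without the B cell zone, Cd3d was at 195 CPM in the 7423 bins where Trbc1 was ahead and 183.5 CPM in the 733 others, beside 606 CPM in WT, so the difference in Cd3d was not seen outside the zone. Trac was then at 238.5 and 273 CPM, and Lat at 1225 and 1064 CPM, or 5.14 and 3.90 UMIs per Trac UMI, beside 3.49 in WT. Lck was at 263 and 241 CPM there, beside 899.5 CPM in WT, and it was low in both parts with or without the zone.

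**Figure D3:**
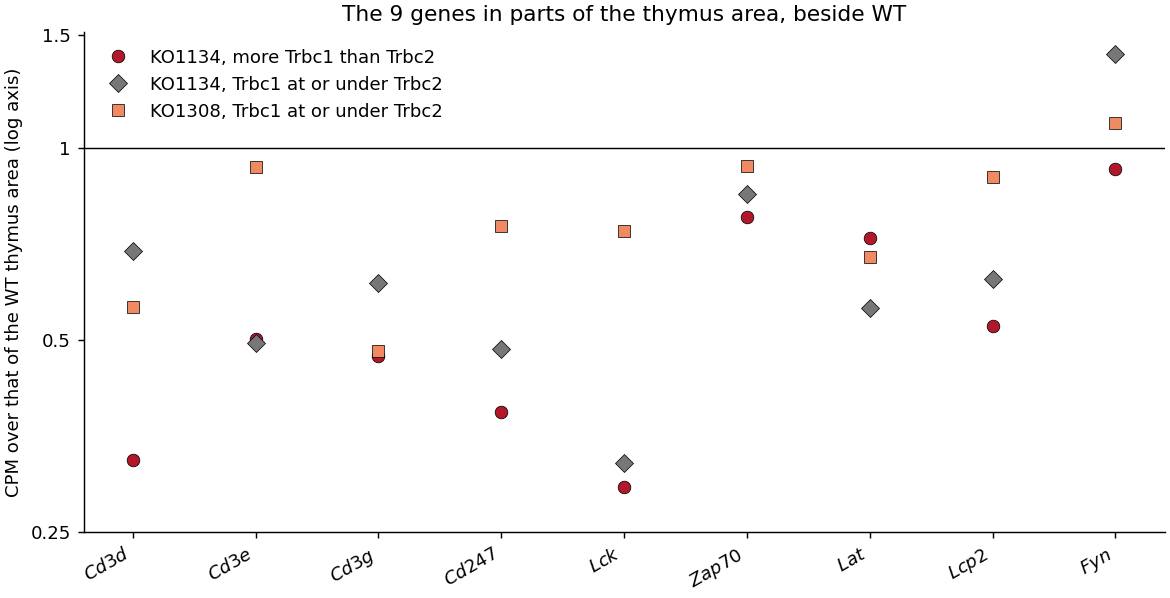
Levels of the 9 genes in parts of the thymus area, each divided by the level in the WT thymus area, on a log axis; circles and diamonds are the KO1134 bins with more Trbc1 than Trbc2 (7730 bins) and the others (1779 bins), and squares are KO1308 bins without a Trbc1 lead (14136 bins). Lck is low in both parts of KO1134 (264 and 288 CPM, WT 898 CPM), and Cd3d is lower where Trbc1 leads (196 against 417 CPM), with 58.8% of the diamonds' bins in the B cell zone.

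Compartments were set from epithelial, B cell, fat and connective tissue genes, without any T cell gene. Cortex took 36.4%, 21.2% and 47.5% of bins in KO1134, KO1308 and WT, and medulla 18.6%, 50.5% and 15.6%. Bins without a compartment made up 2.58%, 3.71% and 26.8%, and those of WT held the CD3 chains at 1472 CPM, near its cortex. The limit is relative to the mean of the sections, so a compartment can hold unlike parts of the tissue in KO and WT. A B cell zone took 17.6%, 6.65% and 2.39%, and on the map of KO1134 most of it lay together in 1 area. Within the cortex the summed CD3 chains were at 618, 946 and 1493 CPM, or 0.414 (0.404 to 0.425) and 0.633 (0.614 to 0.654) of WT. In the medulla they were at 575, 775 and 1240 CPM, or 0.463 (0.443 to 0.484) and 0.625 (0.602 to 0.649). The difference between genotypes was thus present in both compartments. Of the 9 genes, Cd3d and Cd3g were below 1/1.5 of WT in both KO sections in the cortex (2 of 9, beside 5.98% of all genes there), and Cd3d, Cd3g, Lat and Fyn in the medulla (4 of 9, beside 4.51%). Fyn was at 0.923 and 0.972 of WT in the cortex but at 0.589 (0.495 to 0.700) and 0.664 (0.569 to 0.776) in the medulla. Per Trac UMI, the CD3 chains in the cortex were at 0.829 and 1.04 of WT and those in the medulla at 1.03 and 1.25. Lat per Trac UMI was above WT in both KO sections in cortex and medulla, at 1.58 and 1.31 in the cortex and 1.20 and 1.28 in the medulla. In the sums over all bins it was level with WT. In the B cell zone it was below WT in both KO sections, at 0.530 (0.494 to 0.568) in KO1134 and 0.697 (0.636 to 0.764) in KO1308. The zone is set by B cell genes alone, and its 653 bins in WT may be unlike tissue. Cd2, Cd5, Cd6, Bcl11b and Tcf7 summed to 1630 CPM there, near the 1490 CPM of the WT medulla. In the zones of KO1134 and KO1308 they summed to 766 and 561 CPM.

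**Figure D4:**
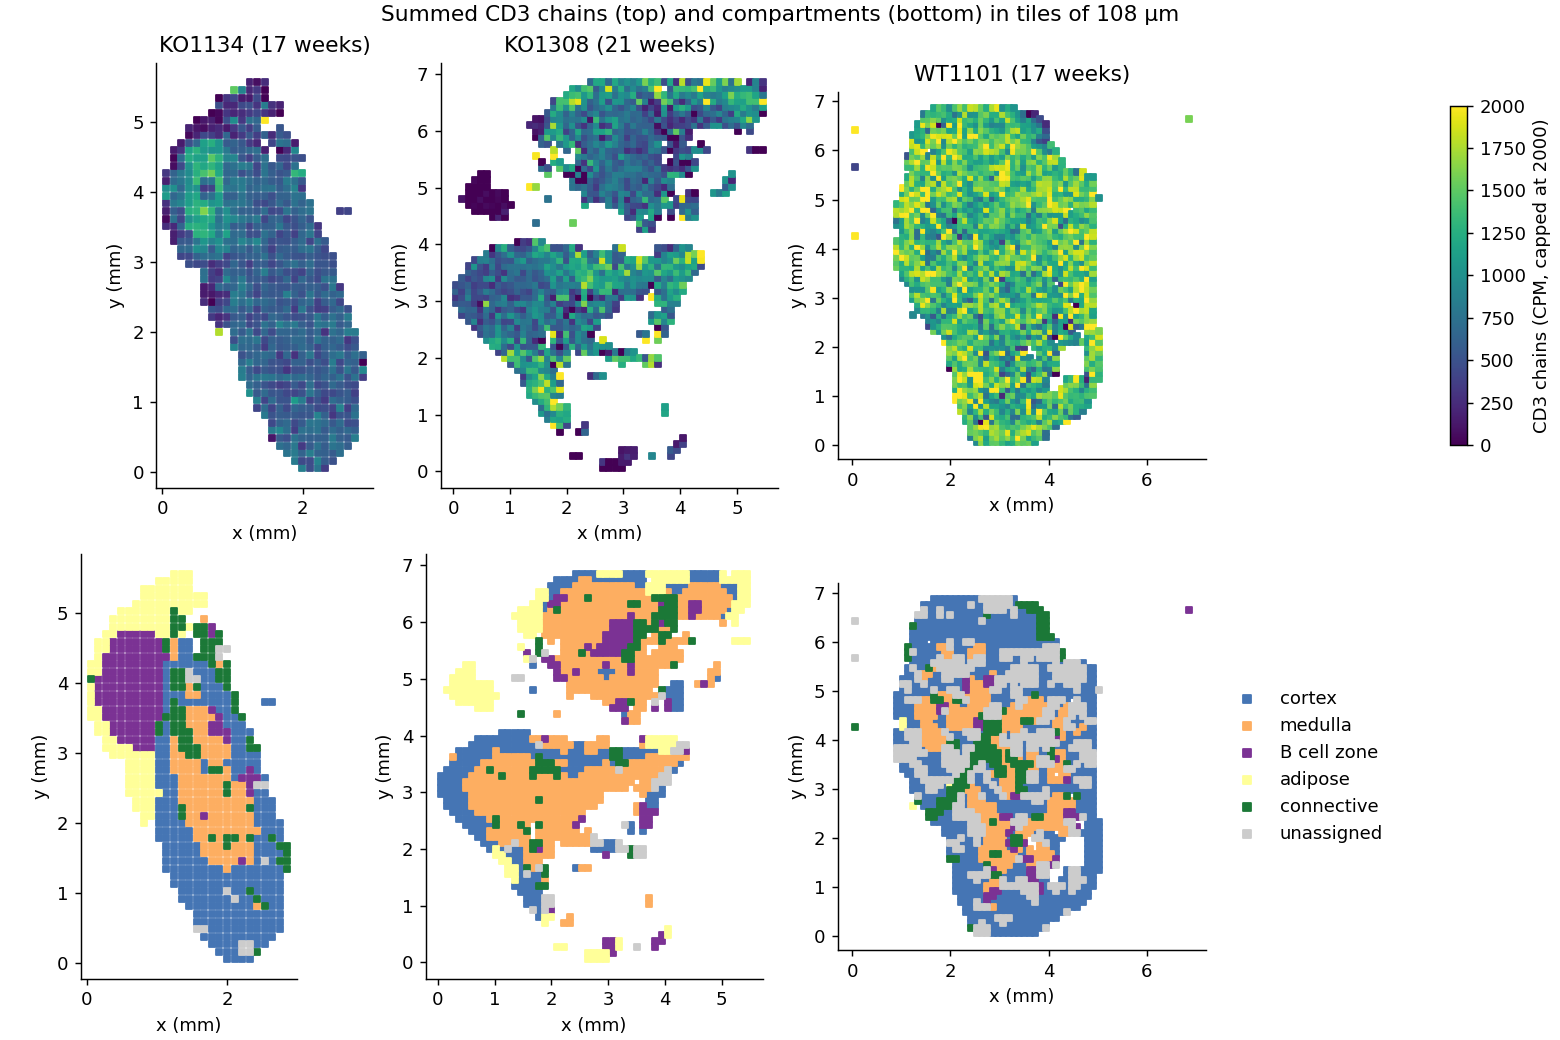
Maps of the summed CD3 chains in CPM (top, colour capped at 2000 CPM) and of the compartment most frequent in each tile (bottom), in tiles of 4 × 4 bins with axes in mm, for KO1134, KO1308 and WT. CD3 is highest in WT (1443 CPM over all bins), and in KO1134 it is highest in the B cell zone (929 CPM, beside 618 CPM in the cortex).

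The B cell zone of KO1134 differed from its thymus tissue in how the genes stood to each other. Trac was at 553 CPM there, beside 243 CPM in the cortex of the same section and 556 CPM in the B cell zone of WT. Cd3d was at 452 CPM, beside 187 CPM in the cortex, and Cd3g at 335 CPM, beside 268 CPM. Cd3e was at 142 CPM beside 163 CPM in the cortex, and per Trac UMI it was 0.383 of the cortex value, beside 0.598 in KO1308 and 0.895 in WT. Cd3e made up 15.3% of CD3 UMIs in this zone, beside 26.5% in KO1308 and 25.3% in WT. Comparisons with the WT zone carry the limit given above. Without the B cell zone, Cd3d, Cd3g and Lat were still below 1/1.5 of WT in both KO sections. In adipose bins, which can border other tissue, the CD3 chains were at 326 CPM in KO1134 and 488 CPM in KO1308. The cortex of these sections was at 618 and 946 CPM, and the 61 adipose bins of WT are too few to read.

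Medulla and cortex of the same section were compared in an edgeR fit of 6 sums with the section as a block. Lat (-0.66 ± 0.12, log2, SE; adjusted p 0.00395), Lck (-0.62 ± 0.10; adjusted p 0.00275) and Cd3g (-0.37 ± 0.10; adjusted p 0.0256) fell from cortex to medulla, and Fyn rose (0.50 ± 0.15; adjusted p 0.0328). These are 3 of 9 genes lower, beside 12.7% of all 17052 genes, and 1 of 9 higher, beside 18.3%. Lck was at 283, 771 and 934 CPM in the cortex of KO1134, KO1308 and WT and at 200, 523 and 611 CPM in the medulla, lower in the medulla in each section. Lat was at 1348, 1364 and 1707 CPM in the cortex and at 741, 881 and 1374 CPM in the medulla. Fyn was at 35.4, 37.3 and 38.4 CPM in the cortex and at 43.5, 49.1 and 73.9 CPM in the medulla, where WT was highest. The estimates of Cd3d (-0.22 ± 0.14), Cd3e (-0.22 ± 0.10), Cd247 (-0.24 ± 0.10), Zap70 (-0.09 ± 0.11) and Lcp2 (0.09 ± 0.11) did not pass the test in edgeR (adjusted p 0.112 to 0.588). In CPM, Lcp2 and Fyn were higher in the medulla in all 3 sections (2 of 9, beside 31.2% of 13639 genes) and Cd3e, Cd3g, Cd247, Lck and Lat lower (5 of 9, beside 28.9%), while Cd3d and Zap70 went both ways. Cd3d was at 1.13 (1.05 to 1.21) of the cortex in KO1134, 0.774 (0.727 to 0.823) in KO1308 and 0.822 (0.783 to 0.861) in WT. The calls for Cd3g and Fyn were lost without KO1308 (adjusted p 0.164 and 0.105) and without WT (adjusted p 0.0615 and 0.284); those for Lck and Lat were kept with any 1 section left out. Without KO1134, Cd3d passed as well (adjusted p 0.0387). With a limit of 2 for a compartment none of the 4 passed (adjusted p 0.0557 to 0.378), nor without the section block (adjusted p 0.328 to 0.704). That limit left only 133, 134 and 266 cortex bins in KO1134, KO1308 and WT. The estimates were then -0.65 for Lat, -0.53 for Lck, -0.37 for Cd3g and 0.51 for Fyn.

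**Figure D5:**
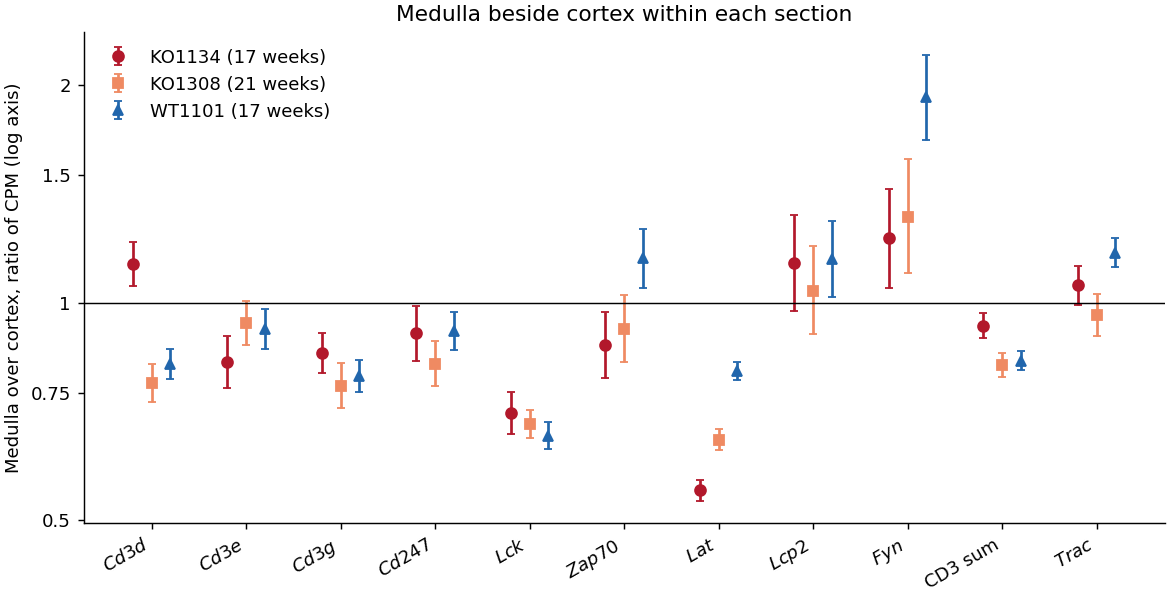
Medulla over cortex as a ratio of CPM on a log axis, for the 9 genes, the summed CD3 chains and Trac in KO1134 (circles), KO1308 (squares) and WT (triangles); bars are exact conditional 95% intervals for counting error. Lck lies at 0.654 to 0.704 and Lat at 0.550 to 0.805 in the 3 sections, and Fyn lies above 1 in each, highest in WT (1.92).

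Scaled to Trac, the same 4 genes passed, with Lat at -0.69 ± 0.14 (adjusted p 0.000326), Lck at -0.64 ± 0.15 (adjusted p 0.000952), Cd3g at -0.40 ± 0.15 (adjusted p 0.0384) and Fyn at 0.46 ± 0.17 (adjusted p 0.0409); 12.3% of all genes were lower and 18.5% higher. Per Trac UMI, Fyn was above the cortex in all 3 sections (1 of 9, beside 25.1%), and Cd3e, Cd3g, Cd247, Lck, Zap70 and Lat were below it (6 of 9, beside 33.0%). Whether the step from cortex to medulla differed between KO and WT was tested by an added term, with the lone WT pair taken to vary as the others. In edgeR none of the 9 passed (adjusted p 0.699 to 1.0), beside 0.962% of all genes, and none had an unadjusted p under 0.05. The lowest p was that of Fyn (-0.54 ± 0.29), which was 1.92 (1.68 to 2.20) of the cortex level in WT, 1.23 (1.05 to 1.44) in KO1134 and 1.32 (1.10 to 1.58) in KO1308.

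Within sections, WT was the most even. Over 4 parts of each section, the summed CD3 chains ranged from 1404 to 1472 CPM in WT, from 600.5 to 949 CPM in KO1308 and from 584.5 to 758 CPM in KO1134, so that no part of a KO section reached WT. Lck ranged from 837 to 912 CPM in WT, from 451 to 782 CPM in KO1308 and from 232 to 255 CPM in KO1134. Lat per Trac UMI ranged from 3.25 to 3.56 in WT, 2.70 to 4.10 in KO1308 and 2.04 to 5.30 in KO1134. After thinning each bin to 500 UMIs, which left out 166, 3842 and 2879 shallower bins, a CD3 UMI was found in 25.5% (24.8% to 26.3%) of bins in KO1134, 30.7% (29.9% to 31.5%) in KO1308 and 48.8% (48.2% to 49.5%) in WT. Unthinned, the shares were 69.3%, 47.0% and 76.0%. The adipose bins of KO1134 and KO1308 gave 15.3% and 18.3% after thinning. These bins can border other tissue, and the part of free RNA or scattered cells in them was not tested. A bin can hold several cells, so these are shares of bins and not of cells.

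Across the 18 sums by section and compartment with at least 50 bins, the members most alike in log2(CPM + 1) were Cd247 and Lck (r = 0.974), Cd3e and Lck (r = 0.973) and Cd3e and Cd247 (r = 0.946). Cd3d went most with Cd247 (r = 0.912) and Cd3g (r = 0.904), and Lat and Fyn least with each other (r = 0.247). These points share sections and depth, so the values describe these sums only. The WT adipose sum rests on 61 bins, with 1 UMI of Lcp2 and 4 of Fyn. Without it the values of the pairs just named were 0.249 to 0.975, but Lcp2 went from r = 0.551 to 0.924 with Cd247 and from 0.453 to 0.823 with Cd3g. Among 8662 genes with at least 20 CPM, those most like the summed CD3 chains were AI467606, Unc5cl and Rpa1 (r = 0.981, 0.976 and 0.974). The 3 most like Cd3d were Ccm2, Cd28 and Unc5cl (r = 0.964 to 0.974), those most like Cd3e were Carmil2, Nfyc and Wdr78 (r = 0.969 to 0.977), and those most like Cd3g were Sash3, AI467606 and Chtop (r = 0.962 to 0.972). For Cd247 they were Vamp1, Skap1 and Satb1 (r = 0.975 to 0.983), and for Lck they were Cbl, Phf2 and Carmil2 (r = 0.980 to 0.986). Zap70 was most like Srek1, Ythdc1 and Znrd1 (r = 0.940 to 0.945), and Lat most like Aff1, Camk4 and Zfp422 (r = 0.956 to 0.960). Lcp2 was most like Zfp451, Col4a3bp and Rbck1 (r = 0.960 to 0.972), and Fyn most like Gimap8, Stat6 and Otulinl (r = 0.904 to 0.974). Without the WT adipose sum, an alternative added after seeing the data, 0 of the 3 genes named for Lcp2 and 0 of the 3 for Zap70 were again among the 3 most alike, and 1 or 2 of 3 for each other member and the sum.

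The wider pathway was read from 48 genes that act with these 9. Below 1/1.5 of WT in both KO sections were 22 of the 48, beside 7.86% of all genes, and above 1.5 times WT was 1, the adaptor Lax1. In edgeR none of the 48 passed, and 21 had an unadjusted p under 0.05, beside 11.7% of all genes in either direction. All 21 were lower in KO. The receptor and coreceptor genes were lowest, with 7 of 9 below the limit in both and median ratios of 0.231 in KO1134 and 0.453 in KO1308. Cd8a, whose product brings Lck to class I MHC, was at 119, 612 and 1824 CPM in KO1134, KO1308 and WT, and Cd8b1 at 77.6, 491 and 1117 CPM. Cd4, the class II coreceptor that also carries Lck, was at 40.7, 206 and 252 CPM. All 3 coreceptor genes had the order of the sections seen in Lck, with KO1134 lowest and WT highest. Cd3d, Cd3e, Cd247, Zap70 and Lcp2 had it too, and the share of all genes with this order was not counted. The costimulator Cd28 was at 43.2, 65.4 and 187 CPM, and Cd2, an adhesion receptor, at 69.3, 74.9 and 100.2 CPM.

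Of the Tec, Csk and Syk family kinases, 2 of 5 were below the limit in both. Txk, a kinase of the Tec family, was at 26.4, 49.6 and 76.6 CPM. Csk, which holds Lck inactive, was at 118, 133 and 141 CPM, and Syk, the relative of Zap70 used by B and myeloid cells, at 43.9, 48.3 and 36.4 CPM. Among the adaptors 5 of 13 were below the limit in both. Themis, a thymocyte protein needed for positive selection, was at 50.8, 87.5 and 201 CPM, and Trat1 at 61.5, 77.1 and 202 CPM. Grb2, a general adaptor, was at 188, 189 and 163 CPM, and Lax1, a negative adaptor of T and B cells, at 33.7, 49.8 and 19.9 CPM. Of the effectors 4 of 10 were below the limit in both, among them Rasgrp1, which activates Ras after Lat, at 306, 264 and 749 CPM, and Itpkb at 65.0, 71.9 and 185 CPM. Nfatc1, a transcription factor activated by calcium, was at 51.2, 52.3 and 47.7 CPM, near WT. Of the phosphatases and brakes, 4 of 11 were below the limit in both, among them Sla, which lowers TCR levels, at 68.3, 80.9 and 197 CPM, and the ubiquitin ligase Cbl at 74.5, 211 and 355 CPM. Cblb, its relative, was at 46.7, 37.3 and 35.7 CPM, and Ubash3b at 34.9, 18.2 and 13.7 CPM.

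Scaled to Trac in edgeR, Lax1 was higher in KO (1.83 ± 0.58, adjusted p 0.0375) and Cd8a lower (-1.52 ± 0.50, adjusted p 0.0458), and no other gene of the list passed. The step from cortex to medulla relative to Trac differed between KO and WT for Cd8a (1.504 ± 0.28, adjusted p 7.5e-05), Cd8b1 (1.46 ± 0.29, adjusted p 0.000392) and the kinase Tec (1.25 ± 0.36, adjusted p 0.0495), with a higher estimate in KO for each, beside 0.880% of all genes. This term rests on 1 WT pair taken to vary as the others, so its p-values do not measure spread between WT mice. Without scaling to Trac none of the 48 passed for it in edgeR. There 10 had an unadjusted p under 0.05, beside 7.89% of all genes. The unscaled estimates were 1.335 ± 0.35 for Cd8a, 1.27 ± 0.35 for Cd8b1 and 1.095 ± 0.29 for Tec. From cortex to medulla, 13 of the 48 fell in edgeR, beside 12.7% of all genes, and 5 rose, beside 18.3%. Those that fell included Themis (-1.01 ± 0.11, adjusted p 0.00055), Trat1 (-1.02 ± 0.13, adjusted p 0.000895), Trbc1 (-0.93 ± 0.11, adjusted p 0.000657) and Trbc2 (-0.78 ± 0.12, adjusted p 0.00204). Those that rose were Cd2 (0.91 ± 0.16, adjusted p 0.00367), Ubash3b (1.25 ± 0.23, adjusted p 0.00405), Cblb (0.67 ± 0.14, adjusted p 0.00722), Lax1 (0.89 ± 0.21, adjusted p 0.0137) and Syk (0.44 ± 0.12, adjusted p 0.0242). The 48 genes hold genes of B and myeloid cells too, such as Syk and Lax1, whose marker lists were higher in both KO sections as given above.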

How the data were processed

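Reads were processed by the authors with BSTMatrix and STAR, on GRCm38 per the submitters' processing notes. The deposited matrices hold UMI counts for each spot that were not normalised; the annotation they used and the handling of strand are not given in the sources used here. Spot positions were deposited as a score on the scale of the image, in which the nearest spots lie 0.701 units apart, and this distance was taken as 4.8 µm. Depth was 31237062, 21089885 and 41581477 UMIs in KO1134, KO1308 and WT1101, and 87.5% to 99.8% of them lay in the bins used. Bins of 27 µm were kept with at least 300 genes, counted among genes found in at least 5 bins, and at most 30% mitochondrial UMIs. Ratios were computed from sums over bins, with exact 95% intervals. A bin took the compartment whose marker list had the largest share of UMIs in the surrounding 7 × 7 bins relative to the mean of the sections, if at least 1. Sums were fitted with the quasi-likelihood test of edgeR 4.0.16 (TMM, filterByExpr, Benjamini-Hochberg at 0.05), checked on simulated data; DESeq2 1.42.0 was an alternative. No p-value covers the spread between WT mice. Between genotypes the p-values rest on the spread of the 2 KO sections, which the fit shares over genes, and not on each gene's own spread alone. Relative to Trac, Lck (0.455 and 1.14 of WT) and Cd3g (0.777 and 0.764) both had an SE of 0.47. For medulla against cortex, with the section as a block, they rest on how the step within sections varied, again shared over genes. Depth sets the width of the intervals, which cover counting error and not differences between mice. R 4.3.3, Python 3.11.15, numpy 2.4.6, scipy 1.17.1, pandas 2.3.3 and matplotlib 3.10.9 were used. Of the feature identifiers, 99.95% were in GENCODE M21, which gave gene positions; promoters of all 9 genes were found in the RefSeq table, and protein sequences are not shown. The text names the 9 genes, Trac, Trbc1, Trbc2, Trp53, the 2 highest and 2 lowest of each pathway group per Trac UMI, Cd28, genes past a test, genes on the other strand and the 3 genes most like each member by Pearson's r. Some genes that this rule names are not reported here. Pathway genes past a test were chosen after their values were seen. The members and lists were chosen with earlier results of these data known. The split by Trbc1, the fits with a genotype term the medulla fit relative to Trac and the count of spots shared with genes on the other strand were added after seeing the data.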

Additional observations from a re-analysis of the deposited data

Results flagged for a closer look

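In 2 genes the point values of both KO sections lay on 1 side of the cortex level in the medulla and that of WT on the other. The share of all genes with this pattern was not counted. Zap70 in CPM was at 0.874 (0.7875 to 0.969) of the cortex level in the medulla of KO1134 and at 1.15 (1.05 to 1.26) in WT. In KO1308 it was at 0.921 (0.8275 to 1.025), which did not differ from 1 beyond counting error. Lcp2 per Trac UMI was at 1.076 (0.922 to 1.253) in KO1134, 1.080 (0.939 to 1.244) in KO1308 and 0.981 (0.8685 to 1.106) in WT. None of these values of Lcp2 differed from 1 beyond counting error. The difference between KO and WT was tested by a term in the edgeR fit and passed for neither gene, with estimates of -0.30 ± 0.26 for Zap70 in CPM (log2, SE; adjusted p 0.901) and 0.14 ± 0.34 for Lcp2 per Trac UMI (adjusted p 0.969).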

How the results depend on the processing

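With 1 section per mouse and 1 WT mouse, no setting can separate genotype from mouse or slide, and leaving out a KO section leaves no test between genotypes. No paired analysis was possible because the KO and WT sections share no mouse; the section block was used for medulla against cortex.
The number of members below 1/1.5 of WT in both KO sections (4) was 2 in the thymus area, 2 in the cortex and 1 with a 2-fold limit, and 4 to 7 with 1 KO section left out, the 7 being those without KO1308. The number below WT per Trac UMI in both (2) was 1 in the cortex and 0 in the medulla, and 0 against the TCR constant genes or the other T cell genes; it was 2 to 7 with 1 KO section left out, 7 again without KO1308. The mean KO ratio of the CD3 chains per Trac UMI (0.845) turned to 1.14 in the medulla, 1.235 against the TCR constant genes and 1.101 against the other T cell genes. In the same order, Cd3d turned to 1.044, 1.143 and 1.017 and Cd3g to 1.068, 1.152 and 1.037.
Genes called by edgeR between KO and WT (11) were 386 with DESeq2, 1073 with no filter and 5 in the thymus area, and Fyn turned to 0.01606 with library size only. Relative to Trac (1698), the sum of Trac, Trbc1 and Trbc2 as reference, added after seeing the data, gave 8001, and Cd3d, Cd3g, Cd247 and Lck turned to 0.1922, 0.2037, 0.3792 and 0.1536 (log2, none past the test), while Fyn passed it (1.33, adjusted p 0.0451). From cortex to medulla (5279), a compartment limit of 2 gave 1474 and no section block 644, and leaving out 1 section 3164 to 4618, the 3164 being without KO1308. Zap70 turned to 0.1409 with the limit of 2, and Lcp2 to -0.01615 with DESeq2 and -0.01398 with no filter. Fyn was lost with both of these (adjusted p 0.144 and 0.105), and Cd247 was gained with DESeq2 (adjusted p 0.0325). Bins with a CD3 UMI were 69.26% unthinned and 45.41% at 1000 UMIs in KO1134, 46.97% and 50.47% in KO1308, and 76.01% and 74.32% in WT. The cause of these changes was not tested, and the other 46 values of the main results kept their direction and stayed near their main value.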
